A study of Mus musculus with 9 samples.

Results

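The genes described here are 10 genes of mouse chromosome 4 that lie within 10 Mb of Pik3cd, the gene of the PI3K catalytic subunit P110δ. They are the zinc finger genes Zfp990, Zfp993, Zfp991, Zfp988, Zfp985 and Zfp984, the uncharacterised gene Gm21411, the retrovirus restriction gene Fv1, the retinal reductase gene Dhrs3 and the ephrin receptor gene Epha2. They were chosen on measured values, because their counts differed between libraries with and without the Pik3cd-null allele, so every comparison with WT below is a description and carries no test. The 10 genes are part of the 235 genes within 10 Mb of Pik3cd, and of the 18205 genes in all, that were kept out of 47643 in the count table. All 10 passed the filter on low counts, but 4 of them passed through one side only: Zfp988, Epha2 and Gm21411 through the null libraries and Zfp993 through the WT libraries.

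RNA was sequenced from donor-derived LT-HSCs, the long-term repopulating stem cells of the marrow, sorted as lineage-negative cKit+ Sca1+ Flk2- CD48- CD150+ cells, and each genotype has 3 libraries. TKO donors were Pik3ca lox/lox, Pik3cb lox/lox and Pik3cd-/- and carried Mx1-Cre, a Cre recombinase driven by the interferon-inducible Mx1 promoter. The δKO donors, described as littermates of the TKO, had the same alleles without Mx1-Cre, so P110δ was absent from the germline and the floxed Pik3ca and Pik3cb were left in place. WT donors carried Mx1-Cre and no targeted PI3K allele, and the methods do not call them littermates. Donors and recipients were of both sexes, and their age is given as 6 to 8 weeks in the transplantation methods and, for donors, as 4 to 6 weeks elsewhere in the study. All donors are labelled C57BL/6, and the Pik3cd-null line was backcrossed to that strain over several generations. Marrow was transplanted into lethally irradiated B6.SJL recipients, all recipients received 2 injections of 250 μg pIpC, which turns on Mx1-Cre, 48 hours apart, and cells were sorted 4 weeks later. Marrow of the 7 recipients in a group was pooled before staining, and the labels do not say whether the libraries of a genotype came from separate animals, so the spread between libraries may be technical. The 6 libraries of δKO and TKO are called the null libraries below. They share the Pik3cd-null allele, the chromosome 4 sequence inherited with it, and floxed Pik3ca and Pik3cb, and in any comparison with WT these cannot be told apart.

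KRAB zinc finger proteins bind DNA through arrays of C2H2 fingers, and their KRAB box recruits the corepressor TRIM28 (KAP1), which brings histone methyltransferases and silences the bound site. The genes sit in clusters that grow by duplication, and many of the proteins are known to silence endogenous retroviruses and other transposons. Fv1 is itself derived from the gag gene of an endogenous retrovirus, and its protein blocks murine leukemia viruses by binding the incoming capsid. DHRS3 reduces retinal to retinol and thereby limits the formation of retinoic acid, a known regulator of HSC differentiation and dormancy. EPHA2 is a receptor tyrosine kinase that binds ephrin-A ligands on neighbouring cells.

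The first 60 coding bases of the zinc finger genes and of Gm21411 are shown because they make visible how alike the members are and why reads can be shared between them. They lead into the KRAB box, were read from the GENCODE transcripts on mm10, and are given 5′ to 3′ with capitals at each base that differs from Zfp990.
Zfp990: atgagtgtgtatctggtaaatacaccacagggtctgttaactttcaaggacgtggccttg
Gm21411: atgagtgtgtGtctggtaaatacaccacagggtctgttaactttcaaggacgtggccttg
Zfp988: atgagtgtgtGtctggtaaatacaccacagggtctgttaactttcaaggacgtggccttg
Zfp985: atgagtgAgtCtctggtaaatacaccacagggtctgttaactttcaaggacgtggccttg
Zfp984: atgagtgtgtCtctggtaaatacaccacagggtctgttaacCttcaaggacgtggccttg
Zfp991: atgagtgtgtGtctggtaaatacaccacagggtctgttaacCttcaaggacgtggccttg
Zfp993: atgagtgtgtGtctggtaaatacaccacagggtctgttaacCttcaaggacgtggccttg
Gm21411 and Zfp988 differed from Zfp990 at 1 base of 60 and were identical to each other, and Zfp985, Zfp984, Zfp991 and Zfp993 differed from it at 2 bases. Not all Zfp genes of the cluster are this close: Zfp980, Zfp600, Zfp978 and Zfp979 differed from Zfp990 at 42 of the 60 bases.

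Cutting each gene's transcripts into words of 50 bases showed how much of a gene no other gene contains. All words of Fv1 and Dhrs3 occurred in no other gene, and those of Epha2 did so except for 1 word of 4621, whereas the share was 84.1% for Zfp985, 70.9% for Zfp990, 45.5% for Zfp984, 34.2% for Gm21411, 31.9% for Zfp988, 17.8% for Zfp991 and 13.2% for Zfp993. Zfp990 shared at least 1 word with 53 other genes, yet the gene closest to it, Zfp987, held only 13.1% of its words. Zfp993 shared 81.9% of its words with Zfp991, so counts of these 2 members are not independent readings. How reads matching several genes were counted is not given in the sources used here, and levels of Zfp993, Zfp991, Zfp988, Gm21411 and Zfp984 are uncertain for this reason.

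RefSeq promoter windows (GRCm38.p6, from 250 bases before to 50 after the annotated start) were found for 7 of the 10 genes, and none was found for Zfp990, Zfp991 or Gm21411. The window under the name Zfp993 lies upstream of the GENCODE gene whose counts are given below, inside Zfp981, and is left out of what follows. The windows of Zfp988, Zfp985 and Zfp984 are shown because they are the most alike of the members' windows. Capitals mark a run of 20 bases common to the 3 windows. The window of Zfp988 is chr4:147305354-147305653 (plus strand), that of Zfp985 is chr4:147553027-147553326 (plus strand) and that of Zfp984 is chr4:147809739-147810038 (minus strand).
Zfp988: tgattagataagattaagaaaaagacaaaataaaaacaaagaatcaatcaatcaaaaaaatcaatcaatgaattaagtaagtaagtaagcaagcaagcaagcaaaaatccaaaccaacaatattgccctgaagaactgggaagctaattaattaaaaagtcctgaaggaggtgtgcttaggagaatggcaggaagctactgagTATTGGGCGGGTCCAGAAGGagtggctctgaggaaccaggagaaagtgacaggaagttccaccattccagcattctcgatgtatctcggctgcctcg
Zfp985: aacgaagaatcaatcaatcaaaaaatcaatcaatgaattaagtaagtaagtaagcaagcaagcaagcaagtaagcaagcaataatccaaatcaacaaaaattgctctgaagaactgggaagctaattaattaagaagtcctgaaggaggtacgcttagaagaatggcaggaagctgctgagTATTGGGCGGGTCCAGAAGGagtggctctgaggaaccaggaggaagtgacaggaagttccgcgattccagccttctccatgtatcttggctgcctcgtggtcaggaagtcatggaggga
Zfp984: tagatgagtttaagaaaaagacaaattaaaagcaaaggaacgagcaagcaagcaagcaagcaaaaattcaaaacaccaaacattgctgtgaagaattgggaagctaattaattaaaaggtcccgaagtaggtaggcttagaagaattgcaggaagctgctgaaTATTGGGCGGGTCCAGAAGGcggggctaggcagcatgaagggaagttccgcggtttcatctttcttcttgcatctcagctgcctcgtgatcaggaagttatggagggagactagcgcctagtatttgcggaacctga
The aligned windows were identical at 74.3% of positions for Zfp988 and Zfp985, 70.2% for Zfp985 and Zfp984, and 59.4% for Zfp988 and Zfp984. The run TATTGGGCGGGTCCAGAAGG, searched on both strands, was found in 8 of 32817 promoter windows (0.0244%): those of Zfp988, Zfp985, Zfp984, Zfp982, Zfp980, Zfp600, Gm13212 and Rex2. It was not in the windows of Fv1, Dhrs3 or Epha2. Of the other holders, Zfp982 had a mean of 1.47 CPM in WT against 0.51 in the null libraries, and the null and WT libraries of Zfp982, Zfp980, Zfp600 and Gm13212 overlapped. The match describes the letters only.

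Pik3cd (chromosome 4 of mm10, from 149649168 to 149702571, minus strand) checks the labels. Its level was 139, 98.2 and 112 CPM (counts scaled to a common library size with TMM factors) in WT replicates 1 to 3. It was 38.5, 91.2 and 71.1 CPM in δKO replicates 1 and 2 and the δKO library whose number no label matches, called the unnumbered δKO library. In TKO replicates 1 to 3 it was 71.2, 73.1 and 73.5 CPM. All 6 null libraries lay below all WT libraries, and transcript of the targeted gene was still counted in each. Pik3ca overlapped between all groups (45.8 to 65.0 CPM in WT, 41.3 to 88.2 in δKO and 52.8 to 68.0 in TKO), and Pik3cb was 44.6 to 63.6 CPM in WT, 33.2 to 101 in δKO and 25.5 to 33.9 in TKO.

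Total counts ranged from 31300343 (unnumbered δKO) to 60386097 (WT replicate 1), so 1 CPM stands for 25.1 to 59.5 counts. δKO libraries differed most among themselves (r of log2 CPM from 0.802 to 0.863, against 0.905 to 0.912 within WT and 0.856 to 0.906 within TKO), and δKO replicate 1 had the fewest genes detected, 18180 against up to 22703. All 12 HSC markers were kept, with a summed level of 1240 to 1470 CPM in WT, 1250 to 2670 in δKO and 1780 to 2120 in TKO. Summed markers of other cells differed between libraries. The 10 neutrophil markers summed to 5270 to 12300 CPM in WT, 271 to 12200 in δKO and 166 to 3250 in TKO, and 5 monocyte markers to 458 to 1140, 144 to 494 and 165 to 695 CPM. The 8 stromal and endothelial markers summed to 23.5 to 42.3 CPM in WT, 20.1 to 30.4 in δKO and 48.5 to 63.2 in TKO, so the sum of every TKO library lay above all others. By gene, 3 of the 7 kept were higher in TKO than in WT and 4 lower (median log2 fold change −0.57). Against δKO, 6 were higher in TKO and 1 lower (median 0.99), so the sum does not speak for each marker. Sums were 4.68 to 12.4 for 6 B cell markers, 5.83 to 44.6 for 8 erythroid markers and 1.32 to 51.6 for 6 T cell markers, of which Cd3e, Cd3g and Cd8a were at 0 in all 9 libraries. The part of these cells in the results below was not tested, and in bulk RNA fewer cells with a transcript and less transcript per cell cannot be told apart.

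Zfp990 (ENSMUSG00000078503.9; chromosome 4 of mm10, 145510759 to 145539188, plus strand, 4.15 Mb to the centromeric side of Pik3cd) stood far from every other member. It was 0.537, 0.360 and 0.669 CPM in WT replicates 1 to 3, from 32, 19 and 28 counts. In δKO replicates 1 and 2 and the unnumbered library it reached 60.2, 35.5 and 31 CPM, and in TKO replicates 1 to 3 43.9, 39.1 and 49.9 CPM. A gene that was barely counted in WT LT-HSCs was thus well counted in all 6 null libraries, and the lowest null library was 46.4 times the highest WT library. The mean over the null libraries was 82.9 times the WT mean, and the fitted log2 difference was 6.37 (SE 0.478). Over the whole table, 1 of 18205 genes (0.00549%) met the call rule in TKO against WT and 1 (0.00549%) in δKO against WT, and in both it was Zfp990. Since these comparisons chose the members, that is no test of it. No annotated gene overlaps it.

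Gm21411 (ENSMUSG00000045699.3; 146892406 to 146909590, minus strand) had the next largest ratio. Its counts in WT replicates 1 to 3 were 3, 0 and 7, or 0.0504, 0 and 0.167 CPM. The δKO libraries held 32, 150 and 70 counts (1.28, 2.67 and 2.58 CPM), and the TKO libraries 336, 69 and 198 (6.43, 2.01 and 4.20 CPM). Every null library was above every WT library, by 7.64 times at the nearest pair, and the mean was 44.0 times that of WT (fitted log2 difference 5.36, SE 1.37). Because only 10 counts stand behind the WT mean, the size of the ratio is loose. Leaving out WT replicate 1, 2 or 3 gave fitted differences of 5.16, 4.78 and 6.73. The gene lies inside the lincRNA Gm26573 on the same strand, whose mean was 0.289 CPM in WT against 0.0608 in δKO and 0.223 in TKO, so the host was not higher in the null libraries.

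Zfp985 (ENSMUSG00000065999.13; 147553277 to 147585198, plus strand) is the zinc finger member least shared with other genes. It was 0.319, 0.341 and 0.454 CPM in WT, 0.878, 1.03 and 0.922 in δKO, and 1.99, 1.25 and 2.78 in TKO. The null mean was 3.97 times the WT mean (fitted log2 difference 1.88, SE 0.957).

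Zfp984 (ENSMUSG00000078495.10; 147753974 to 147809788, minus strand) was the highest zinc finger member in WT. Its level was 5.74, 7.13 and 4.13 CPM in WT, 11.9, 9.05 and 8.74 in δKO, and 7.30, 8.81 and 11.1 in TKO. The nearest libraries of the 2 sides differed by only 1.02 times, and the null mean was 1.67 times the WT mean (fitted log2 difference 0.74, SE 0.507). The lincRNA Gm20707 overlaps it on the same strand and had 9.86 CPM in WT against 11.6 in δKO and 20.4 in TKO.

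Zfp988 (ENSMUSG00000078498.5; 147305674 to 147333734, plus strand) was close to the limit of counting. WT libraries held 3, 8 and 7 counts, δKO libraries 11, 16 and 7, and TKO libraries 16, 11 and 20. As CPM these were 0.0504 to 0.167 in WT, 0.258 to 0.439 in δKO and 0.306 to 0.424 in TKO, so the sides did not overlap, although raw counts of 7 occurred on both. The fitted log2 difference of 1.44 (SE 1.09) became 1.07 without WT replicate 1 and 1.72 without WT replicate 3.

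Zfp991 and Zfp993 were lower in the null libraries. Zfp991 (ENSMUSG00000067916.9; 147132038 to 147180579, plus strand) was 1.93, 4.23 and 1.96 CPM in WT, 0.798, 0.926 and 1.40 in δKO, and 0.727, 0.610 and 0.826 in TKO. WT replicate 2 was the highest, and without it the fitted log2 difference moved from −1.64 (SE 0.806) to −1.17. Zfp993 (ENSMUSG00000063245.11; 146610961 to 146658160, plus strand) held 37, 23 and 26 counts in WT, 2, 8 and 5 in δKO, and 11, 8 and 8 in TKO. That is 0.436 to 0.621 CPM in WT against 0.0798 to 0.184 in δKO and 0.170 to 0.232 in TKO, with a fitted log2 difference of −1.73 (SE 0.95). The WT mean was 3.07 times the null mean for Zfp991 and 3.29 times for Zfp993. Zfp991 and Zfp988 both overlap the lincRNAs C230088H06Rik (opposite strand) and Gm26624 (same strand), and Zfp993 overlaps Gm26573 (opposite strand). Whether counting used strand is not given in the sources used here, so these levels are uncertain for that reason too.

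**Figure D1:**
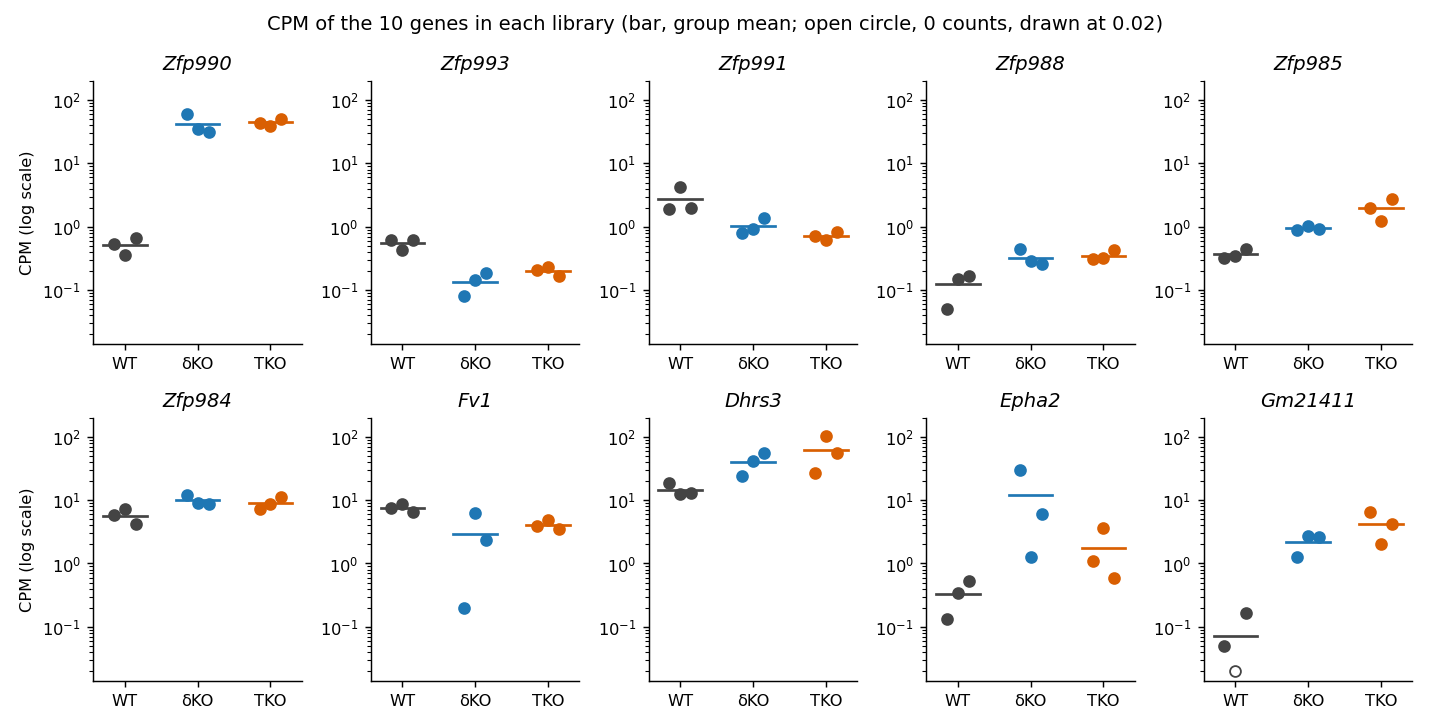
CPM of the 10 genes in each library, on a log axis shared by all panels; points are libraries in the order of replicates 1, 2 and 3 (1, 2 and unnumbered for δKO) and bars are group means. In every panel the 6 null libraries lie on one side of the 3 WT libraries, with the widest gap for Zfp990 (at most 0.669 CPM in WT and at least 31 CPM in the null libraries).

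Fv1 (ENSMUSG00000070583.1; 147868979 to 147870358, plus strand) lies just beyond the last zinc finger gene of the cluster and 1.81 Mb from Pik3cd. WT libraries had 7.51, 8.65 and 6.49 CPM, δKO libraries 0.199, 6.32 and 2.36, and TKO libraries 3.84, 4.8 and 3.54. All null libraries were lower than WT, but δKO replicate 2 was within 1.03 times of the lowest WT library while δKO replicate 1 held only 5 counts. The WT mean was 2.15 times the null mean (fitted log2 difference −1.12, SE 0.810). That difference was −0.85 without δKO replicate 1 and −1.72 without δKO replicate 2. In the same order of libraries, the summed neutrophil markers were 271, 4730 and 12200 CPM in δKO and 166, 3250 and 928 in TKO, and 5270 to 12300 in WT. Their part in the level of Fv1 was not tested.

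Dhrs3 (ENSMUSG00000066026.14; 144892827 to 144928209, plus strand) had the highest mean CPM of the members in WT and TKO and lies on the other flank of the cluster, 4.77 Mb from Pik3cd. It was 18.4, 12.4 and 13.1 CPM in WT, 23.9, 41.7 and 55.5 in δKO, and 26.7, 102 and 56.2 in TKO. The null libraries spread widely, from 1.30 times the highest WT library upward, and their mean was 3.48 times that of WT (fitted log2 difference 1.77, SE 0.452).

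Epha2 (ENSMUSG00000006445.3; 141301240 to 141329384, plus strand) is the member farthest from Pik3cd, at 8.36 Mb. It was 0.134, 0.341 and 0.525 CPM in WT, 29.4, 1.26 and 5.97 in δKO, and 1.09, 3.60 and 0.593 in TKO. δKO replicate 1, with 736 counts, held 4.92 times the level of the next library, and TKO replicate 3 lay only 1.13 times above the highest WT library. The fitted log2 difference of 3.79 (SE 1.19) was 2.91 without δKO replicate 1. That library had the lowest sum of stromal and endothelial markers (20.1 CPM) and the highest of T cell markers (51.6 CPM). The T cell sums of δKO, 51.6, 1.32 and 2.47 CPM, were mostly Lck, which averaged 17.4 CPM there, while Cd3e, Cd3g and Cd8a were at 0. The part of such cells in the level of Epha2 was not tested.

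In all, 7 of the 10 genes had every null library above every WT library and 3 had every null library below. Over all genes kept, 0.84% lay above and 1.2% lay below in this way. Since this contrast chose the members, the shares are given only for orientation. The median size of the fitted log2 difference, direction aside, was 1.75 over the members and 0.40 over all genes.

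Per kilobase of exon, the order of the members changed between WT and null libraries. In WT, Fv1 (5.47 CPM per kb) and Dhrs3 (5.0) led and overlapped each other, followed by Zfp984 (1.95) and Zfp991 (0.928), whose libraries also overlapped, and then by Zfp993 (0.439), which stood apart from both neighbours in the order. Zfp990 (0.149), Zfp985 (0.129), Gm21411 (0.0967), Epha2 (0.0714) and Zfp988 (0.0440) came last, and no neighbours among these differed beyond the spread of their libraries. In δKO, Dhrs3 (13.8 CPM per kb) and Zfp990 (12.1) overlapped and were above all other members, with Zfp984 (3.40), Gm21411 (2.90), Epha2 (2.61) and Fv1 (2.15) next and mutually overlapping as neighbours. In TKO, Dhrs3 (21.0) and Zfp990 (12.7) again overlapped each other and stood above Gm21411 (5.61), Zfp984 (3.11) and Fv1 (2.94). Zfp993 and Zfp988 took the last 2 places in both null genotypes, at 0.106 to 0.160 CPM per kb. Only 13.2% and 31.9% of their words occurred in no other gene, against 100% for Fv1 and Dhrs3. The order between genes is uncertain for this reason.

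The zinc finger members belong to a cluster of 17 Zfp genes that spans 2.30 Mb, from the start of Zfp990 to the end of Zfp984. Of the other 11 Zfp genes, 5 were kept and none of these separated null from WT libraries, which 2.04% of all genes did in one direction or the other. Zfp992, the most abundant of them, was 4.29 to 5.56 CPM in WT, 4.31 to 14.9 in δKO and 5.83 to 9.42 in TKO. Zfp982 was 0.924 to 1.91 CPM in WT, 0 to 0.239 in δKO and 0.318 to 2.01 in TKO. Zfp979 had means of 1.08, 1.44 and 1.12 CPM in WT, δKO and TKO, and Zfp534 of 0.212, 1.03 and 0.975. Zfp981 had at most 0.0239 CPM in a WT library and up to 2.43 in TKO replicate 1, but 0 in δKO replicate 1. The 6 that failed the filter (Zfp980, Zfp986, Zfp987, Zfp600, Zfp989 and Zfp978) had group means of at most 0.598 CPM, reached by Zfp989 in TKO. Zfp989 had 0.0168, 0.0190 and 0 CPM in WT and 0.120 to 0.826 in the null libraries, so its libraries did not overlap.

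**Figure D2:**
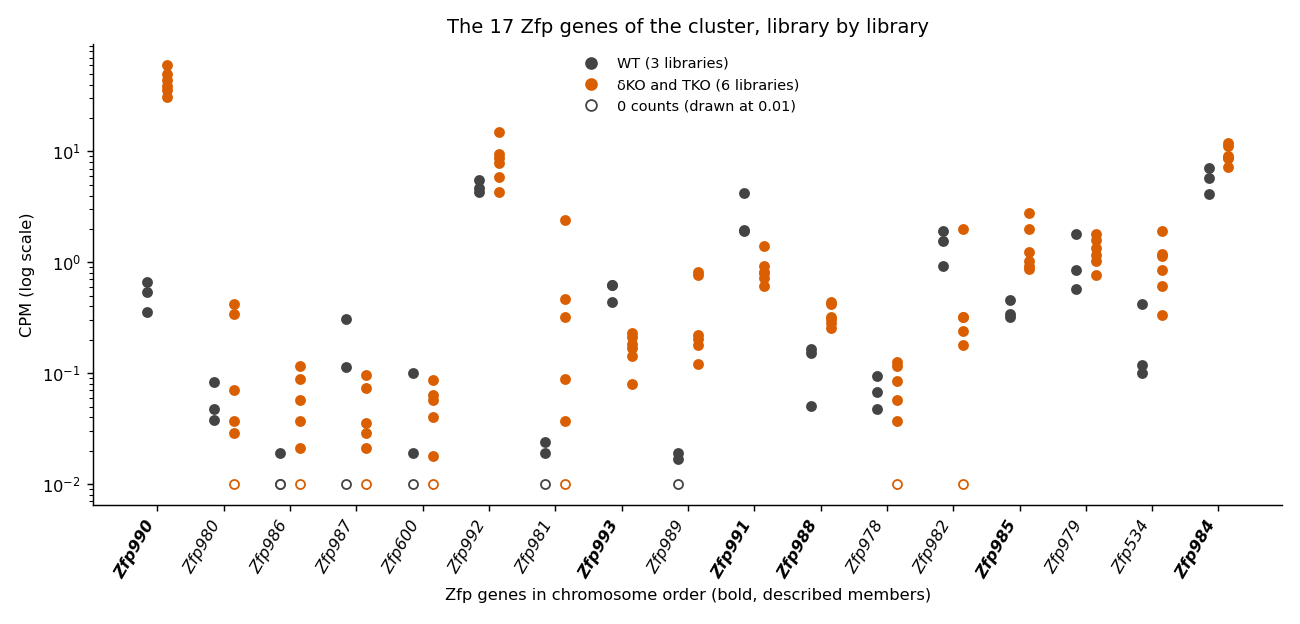
CPM, on a log axis, of the 17 Zfp genes of the cluster in chromosome order, with 1 point per library (dark, the 3 WT libraries; orange, the 6 null libraries; open circles, 0 counts). Zfp990 does not exceed 0.669 CPM in WT, where Zfp992 and Zfp984 lead, and above every other Zfp gene in the null libraries.

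Summed over the 17 genes, the cluster gave 16.1, 21.1 and 16.6 CPM in WT, 92.7, 58.6 and 49.4 in δKO, and 68.0, 62.8 and 77.7 in TKO. Zfp990 supplied 2.92% of the sum in WT, 63.2% in δKO and 63.7% in TKO. Without Zfp990 the sum was 17.4 ± 2.88 CPM in WT against 24.6 ± 7.17 in δKO and 25.2 ± 2.29 in TKO (mean ± SD, n = 3), and the log2 ratio of null over WT went from 1.93 to 0.52. The excess of cluster transcripts in the null libraries was thus mostly counts of 1 gene.

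All 10 members lie on the centromeric side of Pik3cd, so shares by distance are given with and without them. Among the 85 genes kept in the 5 Mb on that side, 16 (18.8%) did not overlap between the 2 sets of libraries, of which 9 were higher and 7 lower in the null libraries, and 9 of the 16 are members. Without the members, 7 of 76 (9.21%) remained. The share was 2.70% of 37 genes at 5 to 10 Mb on that side, where the 1 gene was Epha2, 1.28% of 78 genes from 10 to 15 Mb and 1.92% of 104 from 15 to 20 Mb. On the telomeric side it was 3.77% of 53 genes within 5 Mb, or 1 of 52 (1.92%) without Pik3cd itself, and 3.39% of 59 genes beyond. Within the zinc finger cluster, 9 of 35 genes kept (25.7%) did not overlap, against 12 of 200 (6.00%) in the rest of the window. With the members and Pik3cd left out these were 2 of 28 (7.14%) and 8 of 196 (4.08%).

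**Figure D3:**
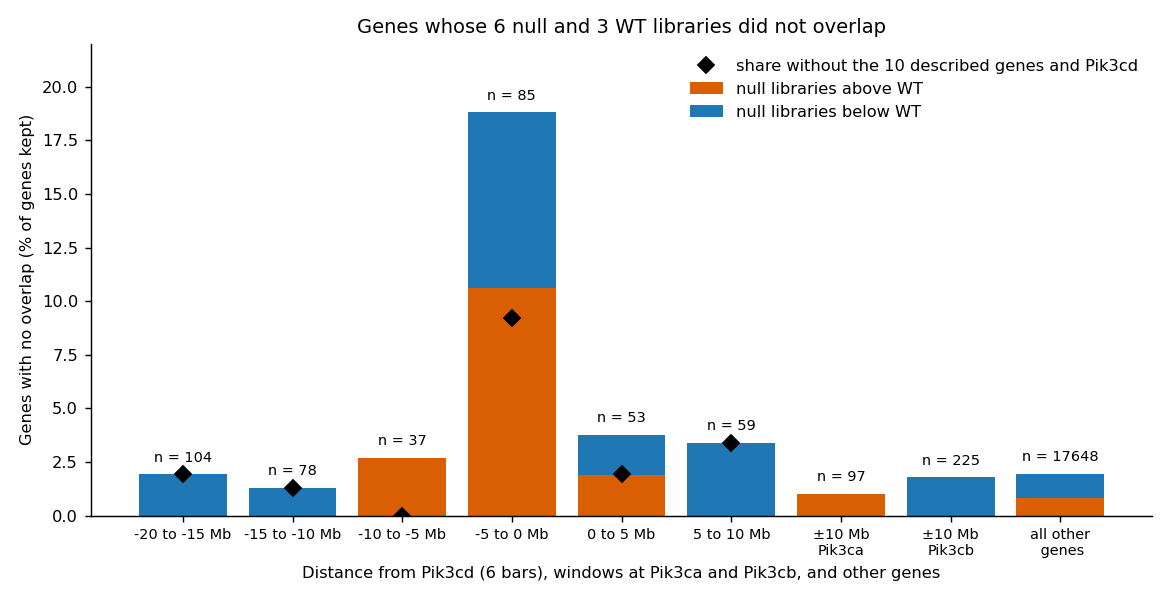
Share of genes kept, in percent, whose 6 null libraries all lay above (orange) or all below (blue) the 3 WT libraries, in bins of distance from Pik3cd (negative, centromeric side) and in windows of 10 Mb on either side of Pik3ca and Pik3cb; n is the number of genes kept, and diamonds give the share in each distance bin with the 10 members and Pik3cd left out. The bin from −5 to 0 Mb reaches 18.8% with the members and 9.21% without them, and all other bars lie at or below 3.77%, that of 0 to 5 Mb being 1.92% without Pik3cd.

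The windows round the 2 floxed genes gave a comparison within the same libraries, because Pik3ca and Pik3cb also carry engineered alleles in δKO and TKO and in no WT donor. Within 10 Mb of Pik3cd, 21 of 235 genes (8.94%) did not overlap, against 1 of 97 (1.03%) round Pik3ca, 4 of 225 (1.78%) round Pik3cb and 346 of 17648 (1.96%) among all other genes. With the 10 members and Pik3cd left out, the window of Pik3cd still held 10 of 224 genes (4.46%). The median log2 difference was near 0 in each (0.06 round Pik3cd, 0.14 round Pik3ca, −0.04 round Pik3cb and 0.02 elsewhere), so genes near Pik3cd were not shifted one way as a group. These shares describe a contrast that took part in choosing the members, and no test was made of them.

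The other 10 genes of the window that did not overlap include 5 with a mean of at least 1 CPM. Nmnat1, which makes NAD+ in the nucleus and lies 0.199 Mb from Pik3cd, was 2.29 to 3.94 CPM in WT and 4.04 to 23.5 in the null libraries. Ctnnbip1, an inhibitor of β-catenin and TCF binding at 0.134 Mb, was 1.38 to 1.60 CPM in WT and 2.51 to 7.35 in the null libraries. Errfi1, a feedback inhibitor of EGF receptor family kinases at 1.19 Mb, was 1.74 to 5.42 CPM in WT and 9.94 to 14.3 in the null libraries. Ints11, the endonuclease of the Integrator complex, was lower, with 11.1 to 19.1 CPM in WT and 2.79 to 10.5 in the null libraries, and C1qtnf12, which encodes the secreted protein adipolin, was 5.59 to 6.85 CPM in WT and 0.479 to 4.17 in the null libraries.

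Among the 5 with lower means, all named here after their values were seen, the widest gap was that of Fbxo44, a substrate adaptor of an SCF ubiquitin ligase at 1.52 Mb from Pik3cd. It had 153, 74 and 59 counts in WT replicates 1 to 3, 0, 1 and 1 in the δKO libraries and 6, 0 and 7 in TKO replicates 1 to 3. The WT mean was 1.79 CPM, against 0.0182 in δKO and 0.0877 in TKO, and the lowest WT library was 9.46 times the highest null library. Gm13156 (27, 51 and 33 counts in WT and at most 7 in a null library), Gm13205 (42, 17 and 26 against at most 6) and Znf41-ps (49, 33 and 51 against at most 26) were lower in the null libraries. Gm21978 had 0 counts in the 3 WT libraries and from 1 to 105 in the null libraries. Znf41-ps shares 67.1% of the words of Zfp991, so its counts are uncertain as well.

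**Figure D4:**
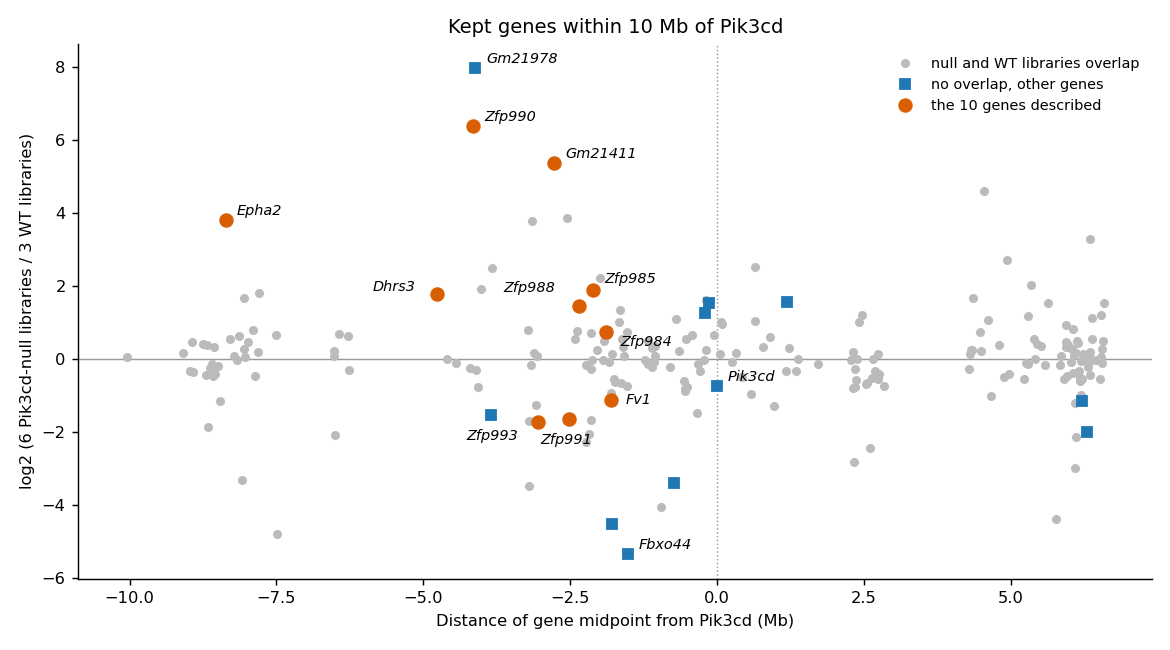
Fitted log2 difference of the 6 null libraries over the 3 WT libraries for the genes kept within 10 Mb of Pik3cd, against the distance of the gene's midpoint from Pik3cd in Mb (negative, centromeric side). Members (orange) lie between −8.36 and −1.81 Mb and on both sides of 0; the height of Gm21978 depends on the fit, since its 3 WT libraries had 0 counts.

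TKO against δKO is the comparison that the choice of members did not use directly, and both sides carry the Pik3cd-null allele. It is not independent of that choice. For every member all TKO and δKO libraries lay on the same side of WT, and Zfp988, Epha2 and Gm21411 passed the filter through these libraries only. The comparison asks about the floxed Pik3ca and Pik3cb alleles with and without Cre. TKO also carries Mx1-Cre and δKO does not, so loss of P110α and P110β and the presence of Cre cannot be told apart. Mean Pik3ca was 60.2 CPM in TKO and 59.2 in δKO, and mean Pik3cb 31 and 67.7, and the summed stromal and endothelial markers were higher in every TKO library. The part of those cells in this comparison was not tested. None of the 10 passed (edgeR's quasi-likelihood test, 2-sided, adjusted over 18205 genes; adjusted p from 0.473 to 0.985), where 0 of all genes (0%) passed, 1851 genes had an unadjusted p under 0.05 and DESeq2 called 526. DESeq2 also called none of the 10, with a smallest adjusted p of 0.122 for Epha2. The smallest interval was that of Zfp990, with a log2 fold change of 0.07 (SE 0.385, 95% interval −0.77 to 0.91, adjusted p = 0.966). Differences of more than 1.88-fold in either direction lie outside that interval. For Zfp984 the log2 fold change was −0.13 (−1.37 to 1.11) and for Dhrs3 0.61 (−0.44 to 1.65). The value of Dhrs3 was 0.03 without TKO replicate 2, its highest library, 0.33 without δKO replicate 1 and 0.96 without TKO replicate 1.

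Wider intervals left larger differences possible for the other members. The log2 fold change was 0.10 (−2.46 to 2.66) for Zfp988, 0.45 (−1.67 to 2.57) for Fv1, 0.58 (−1.96 to 3.11) for Zfp993, −0.53 (−2.66 to 1.60) for Zfp991 and 0.95 (−1.60 to 3.51) for Gm21411. Zfp985 was the only member with every TKO library above every δKO library, where 11.7% of all genes kept these groups apart in one direction or the other, with a log2 fold change of 1.08 (−1.14 to 3.31, adjusted p = 0.736). Epha2 had the largest difference, −2.79 (−5.39 to −0.19), which had an unadjusted p of 0.0375 in the edgeR fit and did not pass the adjustment (adjusted p = 0.473). It became −1.04 without δKO replicate 1. The value of Fv1 turned to −0.10 without δKO replicate 1 and was 1.65 without δKO replicate 2. Over the 10 members the median log2 fold change was 0.28, with 7 above 0, and over all genes −0.06.

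**Figure D5:**
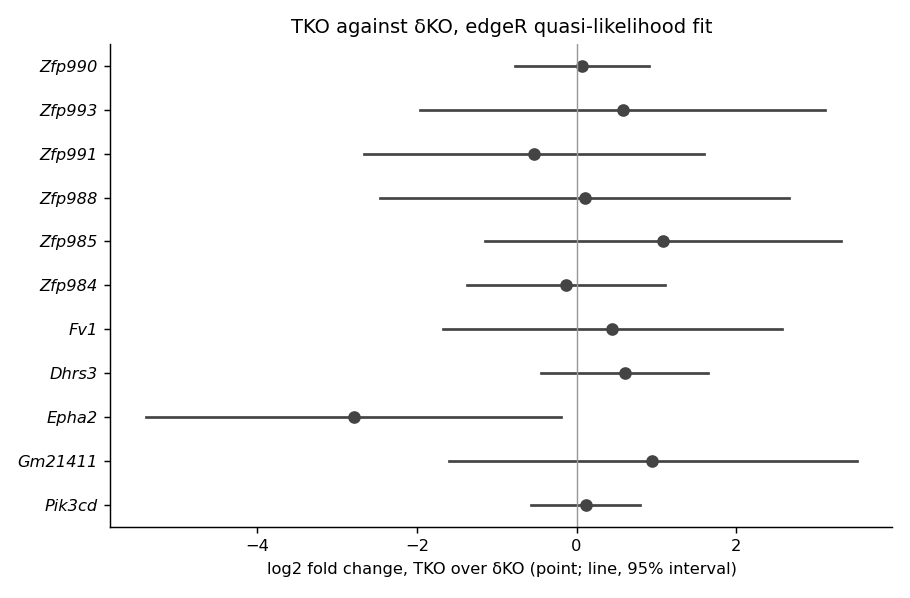
Log2 fold change of TKO over δKO (points) with its 95% interval (lines) for the 10 genes and Pik3cd. All intervals except that of Epha2 (−5.39 to −0.19) include 0, and the narrowest among the members is that of Zfp990.

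The machinery through which KRAB zinc finger proteins act gave no called gene. Of 20 corepressor and heterochromatin genes kept, none passed in any of the 3 comparisons by edgeR or DESeq2, and unadjusted p under 0.05 was reached by 1 in TKO against WT (higher), 2 in δKO against WT (higher) and 2 in TKO against δKO (lower). Over all genes it was reached by 4.19%, 7.01% and 10.2%, shares that also stand beside the counts of the lists below. The median log2 fold change was 0.05, 0.23 and −0.15 in these comparisons, against 0.02, 0.05 and −0.06 over all genes, and 13, 18 and 4 of the 20 genes lay above 0. The most abundant were Dnmt1, the maintenance DNA methyltransferase (723 ± 152 CPM in WT against 852 ± 371 in δKO and 678 ± 152 in TKO, mean ± SD, n = 3), and Chd4, the NuRD remodeler (546 ± 65.1, 587 ± 179 and 591 ± 82.4). Cbx5, which encodes HP1α, was 509, 589 and 543 CPM on average, and Atf7ip, a partner of the methyltransferase SETDB1, 284, 331 and 284.

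Other genes that restrict retroviruses were examined beside Fv1. None of 17 kept passed by edgeR in any comparison, unadjusted p under 0.05 was reached by 2 in TKO against WT (higher), 2 in δKO against WT (higher) and 3 in TKO against δKO (2 higher, 1 lower), and DESeq2 called Ifitm1 as higher in TKO against WT and against δKO. Over all genes DESeq2 called 125 of 19026 and 526 of 18550 in these 2 comparisons. None of the 17 genes separated the null from the WT libraries. Ifitm3 and Ifitm2, which block virus entry, had means of 292 and 239 CPM in WT, 268 and 167 in δKO, and 462 and 211 in TKO. Samhd1, a dNTP hydrolase, was 148, 198 and 220 CPM, and Apobec3, a cytidine deaminase packaged into virions, was 140, 245 and 157 CPM.

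Beside Dhrs3, 18 other retinoid genes were kept and none passed by edgeR or DESeq2 in any comparison. Unadjusted p under 0.05 was reached by 0 in TKO against WT, 1 in δKO against WT (higher) and 2 in TKO against δKO (higher), and the median log2 fold changes were 0.15, −0.11 and 0.19. Aldh1a1, which oxidises retinal to retinoic acid, was 43.3 ± 24.9 CPM in WT against 70.3 ± 64 in δKO and 82.7 ± 10.4 in TKO (mean ± SD, n = 3). Rara, a retinoic acid receptor, was 23.3, 12.8 and 28.0 CPM, Rxrb, its dimer partner, 35.5, 24.1 and 34.2, and Dhrs4, another retinal reductase, 23.7, 18.7 and 35.2. Lrat, Stra6, Rbp4, Crabp1 and Aldh1a2 were at 0 in all libraries.

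The Eph receptors and ephrins other than Epha2 had 11 of 21 genes kept. None passed by edgeR, and unadjusted p under 0.05 was reached by 0 in TKO against WT, 1 in δKO against WT (lower) and 1 in TKO against δKO (higher). DESeq2 called Ephb4 as lower in δKO against WT and higher in TKO against δKO. In these 2 comparisons DESeq2 called 188 of 18111 and 526 of 18550 genes. Median log2 fold changes were −0.54 in TKO against WT and −0.55 in δKO against WT, with 8 of 11 genes below 0 in each, and 0.54 in TKO against δKO, with 8 of 11 above 0. Over all genes the medians were 0.02, 0.05 and −0.06. Epha1, the most abundant receptor, was 61.6 ± 23.7 CPM in WT against 55.9 ± 32.3 in δKO and 53.2 ± 13.1 in TKO (mean ± SD, n = 3). Epha7 was 8.88, 2.14 and 0.815 CPM on average, Ephb6, which lacks kinase activity, 8.12, 1.38 and 4.62, and the ligand gene Efnb1 4.55, 7.31 and 7.51.

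The genes whose log2 CPM over the 9 libraries was most like that of Zfp990 were Gm21411 (Pearson r 0.95), Evc2 on chromosome 5 (0.943), Slc7a8 on chromosome 14 (0.933), Naip3 on chromosome 13 (0.920) and Tie1 (0.916), an HSC marker on chromosome 4. These r describe 9 points in which the WT libraries stand apart from the others for Zfp990. Slc7a8, an amino acid transporter, had means of 14.2 CPM in WT against 55.3 in δKO and 63.8 in TKO, and Evc2, a component of the ciliary Hedgehog pathway, 1.5, 10.2 and 11.9. Among the other members, r with Zfp990 was 0.869 for Zfp988, 0.868 for Zfp985, 0.794 for Zfp984, 0.767 for Dhrs3 and 0.698 for Epha2, and it was −0.555 for Fv1, −0.897 for Zfp991 and −0.912 for Zfp993.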

How the data were processed

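The members and gene lists were chosen with earlier results of these data known. Per the labels and the study's methods, the authors amplified cDNA with Ovation RNA-Seq System V2, trimmed reads with Trim Galore 0.3.7, aligned them to mm10 with STAR 2.5.1b and deposited raw counts per gene. The authors' normalized table was not used here. Each column was mapped by its name, and 1 δKO column had a number no label carries. Genes were kept by filterByExpr (count minimum 10, minimum total 15), which left 18205. Counts were scaled with TMM, and edgeR 4.0.16 (R 4.3.3) quasi-likelihood models with 1 mean per genotype were fitted to all 9 libraries (6 residual degrees of freedom, common BCV 0.805) and tested on simulated data. The call rule was over 2-fold with p under 0.05 after Benjamini-Hochberg adjustment. Intervals are at 95%. Alternatives were DESeq2 1.42.0 and its size factors, no filter, the replicate number as a block, each library left out, and windows of 5 and 20 Mb. Named genes were the members, targeted genes, all Zfp genes of the cluster, up to 8 other window genes that did not overlap and averaged 1 CPM or more (5 with lower means were added after their values were seen), the 5 genes most correlated with Zfp990, and up to 4 of the most abundant genes of each list. Gene positions come from GENCODE M21, in which 47224 of 47643 identifiers were found without their version.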

Additional observations from a re-analysis of the deposited data

How the results depend on the processing

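Against WT, the direction of all 10 members was the same under every alternative run (no test), and the fitted log2 difference of Zfp990 ranged from 6.16 to 6.58. DESeq2 called 125 genes in TKO against WT, 188 in δKO against WT and 526 in TKO against δKO, where edgeR called 1, 1 and 0; the cause was not tested. Leaving out 1 library gave 1 to 4 genes in TKO against WT, with 4 only without δKO replicate 1. None of the members was called in TKO against δKO under any alternative. There the sign turned for Zfp990 (range −0.11 to 0.41 with 1 library left out, below 0 without the unnumbered δKO library, δKO replicate 2 or TKO replicate 3), Zfp988 (−0.06 to 0.36, below 0 without the unnumbered δKO library or TKO replicate 3), Zfp984 (−0.30 to 0.02, not below 0 without TKO replicate 1 or δKO replicate 1) and Fv1 (−0.10 to 1.65, below 0 without δKO replicate 1). The share of genes without overlap within 10 Mb of Pik3cd was 9.96% to 13.7% when 1 library was left out, as fewer libraries overlap less, 7.38% without a filter, 13.0% within 5 Mb and 5.76% within 20 Mb. The log2 ratio of the summed cluster was 1.82 to 2.06 with 1 library left out and 0.52 without Zfp990.

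Libraries with the same number did not visibly deviate together (correlations of deviations from −0.036 to 0.083, against −0.092 to 0.087 for different numbers). The correlations cannot show whether libraries of the same number were prepared together. With the replicate number as a block, fitted to the numbered libraries, 1, 1 and 0 genes were called, none of the members was called in TKO against δKO, and the value of Zfp990 there was −0.21 and that of Zfp988 −0.29.

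With 3 libraries per genotype, the 95% intervals of TKO against δKO span more than 4-fold for 9 of the 10 members, Zfp990 being the exception. In the group where they are low, Zfp988, Zfp993 and Gm21411 rest on at most 11 counts per library.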
